A study of Mus musculus with 8 samples.

Results

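Lysosome and autophagy genes were examined in the adrenal glands of mice lacking *Prkar1a* in the adrenal cortex. The set held 44 genes, grouped by their function: membrane proteins of the lysosome, its proteases, glycosidases, sphingolipid enzymes and cofactors, subunits of its proton pump, the transcription factors of the MiT/TFE family and the machinery of autophagy. The genes were chosen with earlier results of these data known, so the shares of the set given below describe it and do not test it. Each gene was represented by the transcript cluster (the group of probes that the array design assigns to a transcript) with the highest mean, among the 22822 clusters that carried exactly 1 gene symbol. In this way 43 of the 44 genes were measured. The exception was *Glb1*, whose only cluster is shared with *Tmppe*, so no value is given for it.

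The measurements came from 8 Affymetrix Mouse Gene 2.0 ST arrays of RNA from the whole gland, 4 from WT mice and 4 from mice of genotype sf1:Cre; Prkar1a Fl/Fl, which are called KO here, as in the sample titles. All mice were females of 6 weeks on a mixed background, and the WT mice were littermate controls, although whether these carried floxed alleles or Cre is not given in the sources used here. *Prkar1a* encodes the regulatory subunit that holds protein kinase A (PKA) inactive, and Cre under *Sf1* regulatory regions recombines its floxed alleles throughout the steroidogenic cortex from the start of its development. The comparison therefore asks which transcripts differ in an adrenal whose cortical cells have had active PKA since fetal life. The sources used here place this Cre in the steroidogenic cells of the cortex and do not say whether other cells recombined. The medulla, capsule, vessels and surrounding fat were part of the gland that was extracted. In such bulk tissue fewer cells of a type and less RNA per cell cannot be told apart.

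The values were log2 RMA intensities (background corrected, normalised between arrays and summarised per cluster). The median of an array lay between 5.83 and 5.89, and arrays correlated at 0.990 to 0.995 within WT, 0.991 to 0.995 within KO and 0.978 to 0.984 between the groups. *Prkar1a* itself was 8.70 to 9.11 in the WT arrays and 6.92 to 7.35 in the KO arrays, so every array matched its label. The steroidogenic cortex markers had mean values of 10.50 to 13.18. The Y-linked genes that females lack, *Uty*, *Eif2s3y* and *Kdm5d*, gave 3.10 to 3.74 on all arrays, so a value in that range holds no evidence of a transcript. Kidney tubule and intercalated cell markers, read further on, had means of 3.79 to 5.80. A value above the Y-linked range is thus not by itself evidence of a transcript. Each array is a separate biological replicate by its title, and p-values measure the spread between these 8 glands.

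Lysosomes are acidic organelles in which hydrolases break down proteins, glycans and lipids that arrive by endocytosis or by autophagy, the wrapping of cytoplasm in a double membrane that then fuses with the lysosome. Their acidity is made by the vacuolar ATPase, a rotary pump whose cytosolic V1 part burns ATP and whose membrane V0 part carries protons. Many of these genes can be switched on together by TFEB, TFE3 and MITF, basic helix-loop-helix factors that bind CLEAR elements in promoters and that are held in the cytoplasm by mTORC1 when nutrients are plentiful. In steroidogenic cells the lysosome also frees cholesterol from the lipoproteins that the cell takes up, by means of acid lipase, and hands it on through the NPC proteins.

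The lysosomal genes were, in the main, higher in KO adrenals and the autophagy genes were mixed. Differences were tested with limma on all 22822 clusters, with Benjamini-Hochberg adjustment over all of them, and a gene is said to have risen or fallen where the adjusted p was under 0.05. Of the 43 genes, 21 rose, 1 fell and 21 did not pass. Over all clusters 7.35% were higher and 6.17% lower by the same test. Since 41 of the 43 genes had a mean above the median cluster, the same shares were also taken among the 11411 clusters above the median, a background chosen after the data were seen, where they were 12.7% and 9.45%. In 21 genes every KO array lay above every WT array and in 1 every KO array lay below, where 10% and 8.95% of all clusters did so and 16.9% and 12.5% of those above the median. The median log2 fold change (KO minus WT) of the 43 genes was 0.24, a 1.18-fold difference, against -0.02 over all clusters and 0.0064 over those above the median. The same comparison without limma's sharing of the spread across genes, called unmoderated here, gave 17 genes higher and 1 lower with equal variances assumed (5.24% and 4.03% of all clusters) and 11 higher and 1 lower without that assumption (3.11% and 2.16%). Of the genes called by limma, 2 of the set exceeded a log2 fold change of 1 and none was under -1, where 1.08% and 0.929% of all clusters were. The largest difference was that of *Ctsl*, at 1.58. *Atp6v0d2* had a fitted 1.27, whose size is not exact because its WT values lay in the range of the Y-linked genes, and the remaining called genes lay between 0.23 and 0.88 or, for *Ulk1*, at -0.43.

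**Figure D1:**
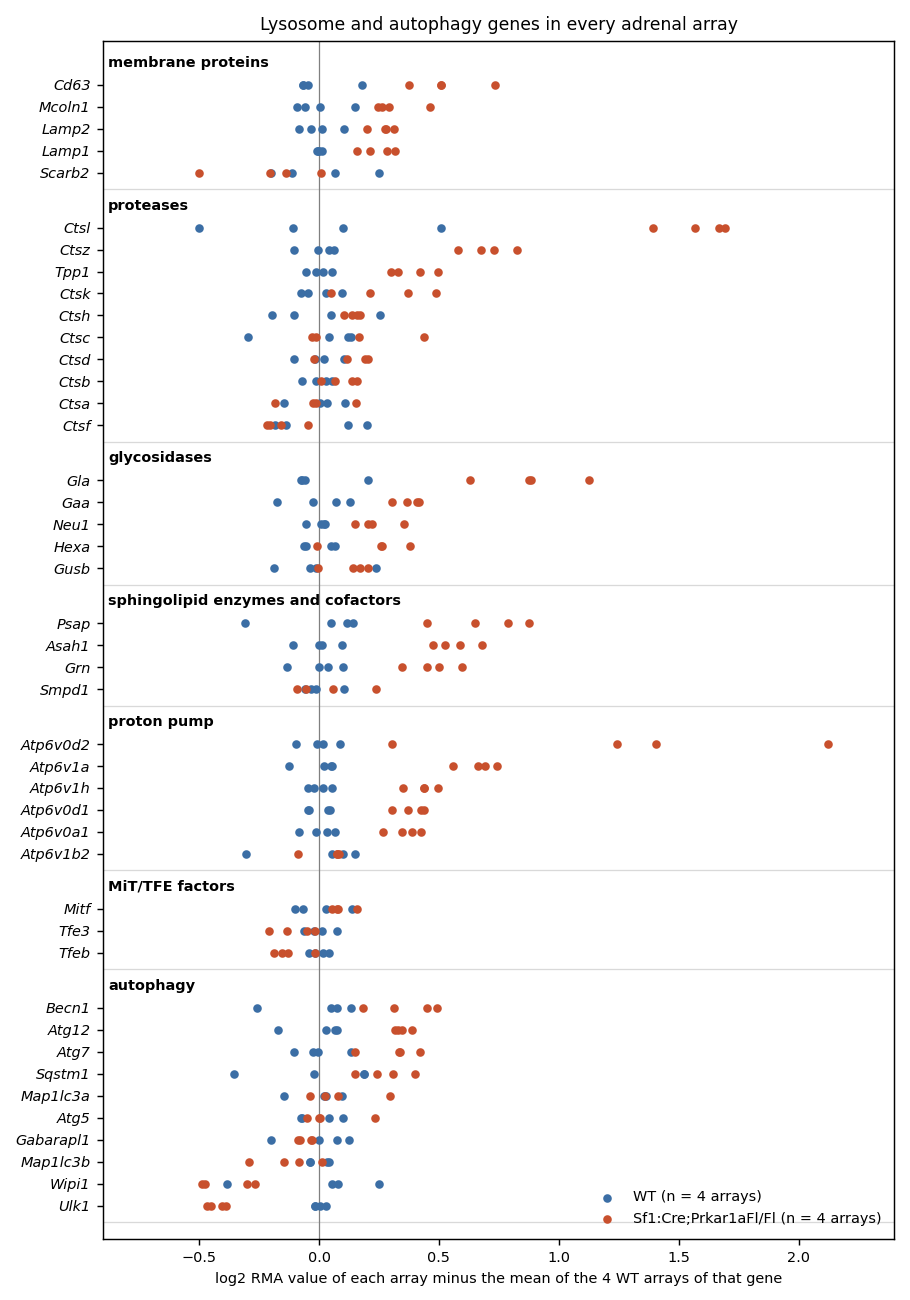
Log2 RMA values of the 43 genes (rows, grouped by role) in the 8 arrays, each minus the WT mean of that gene. The KO values are mostly on the higher side in the lysosomal rows, where 18 of 30 genes rose, and mixed in the autophagy rows.

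**Figure D2:**
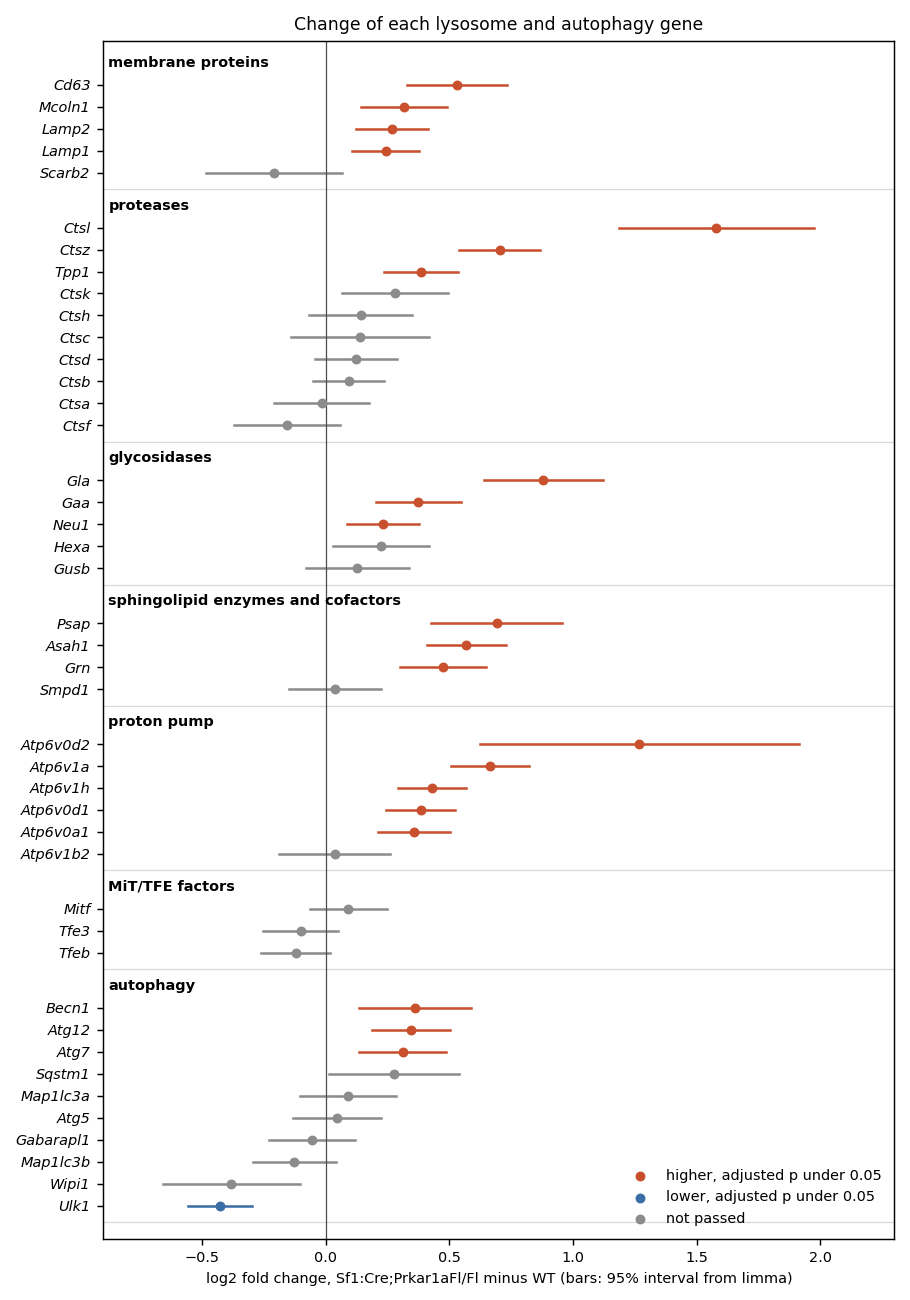
Log2 fold change (KO minus WT, horizontal axis) of each of the 43 genes, in rows grouped by role. Bars give the 95% interval from limma, and points are marked by whether the adjusted p was under 0.05. 21 points are called to the right of zero and 1, *Ulk1*, to the left.

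By role, the 30 measured genes that make up the lysosome itself (membrane proteins, hydrolases with their cofactors, and the pump) had 18 that rose, which is 60.0%, and none that fell. No gene of these 30 was lower at an unadjusted p under 0.05 either, nor with the unmoderated tests. The 3 MiT/TFE factors had no call, and of the 10 autophagy genes 3 rose and 1 fell. A test of the difference between these roles was not made.

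Promoters from RefSeq (mouse build GRCm38.p6, 250 bases before to 50 after each transcription start) were at hand for 35 of the 44 genes, of which 16 rose, 1 fell and 17 did not pass. The table does not list *Asah1*, *Atg12*, *Atp6v0d2*, *Atp6v1b2*, *Atp6v1h*, *Becn1*, *Ctsb*, *Ctsh* and *Map1lc3a*. The core of the CLEAR element, TCACGTGA, reads the same on both strands and was present in 6 of the 35 (17.1%), against 1.12% of the 27025 genes in the table and 1.45% of those on the array. The list was chosen as lysosome and autophagy genes and these shares use no array value, so they test nothing about the KO. Of the 6 genes with the core, *Atp6v0d1*, *Atp6v1a*, *Gla* and *Mcoln1* rose, whereas *Ctsa* and *Ctsd* did not pass. The stretches that hold the core are shown because they let the 4 genes that rose be read beside the 2 that did not, with the core in capitals and each written 5′ to 3′ along the gene.
*Atp6v0d1*, chr8:105566053-105566094, minus strand: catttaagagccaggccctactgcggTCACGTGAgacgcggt
*Atp6v1a*, chr16:44139358-44139417, minus strand: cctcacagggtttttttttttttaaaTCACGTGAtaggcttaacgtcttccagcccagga
*Gla*, chrX:134601167-134601255, minus strand: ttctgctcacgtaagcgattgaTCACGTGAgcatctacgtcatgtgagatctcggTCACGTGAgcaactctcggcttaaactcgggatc
*Mcoln1*, chr8:3500447-3500506, plus strand: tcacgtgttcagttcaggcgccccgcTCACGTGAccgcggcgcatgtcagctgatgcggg
*Ctsa*, chr2:164833734-164833784, plus strand: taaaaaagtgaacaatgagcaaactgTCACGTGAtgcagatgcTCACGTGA
*Ctsd*, chr7:142387893-142387952, minus strand: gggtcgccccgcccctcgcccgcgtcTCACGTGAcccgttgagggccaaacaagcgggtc

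The core began 4 bases before the start in *Atp6v0d1*, 46 in *Mcoln1*, 99 in *Ctsd* and 132 in *Atp6v1a*, whose listed promoter is not that of the outermost start of the gene. *Gla* held it at 228 and 195 bases before the start. *Ctsa* held it at 13 bases before and 5 after the start, in 1 of its 2 listed promoters, whose start is 901 bases from the outermost start of the gene. Thus a promoter with a doubled core was found both in a gene that rose and in a gene that did not pass. The longer CLEAR element, with G before the core and C after it, was in none of the 35 promoters and in 0.37% of all genes. The E-box CACGTG, which lies within the core and was counted with it, was in 13 of the 35 (37.1%), against 8.09% of all genes, and of these 13, 8 rose, 4 did not pass and 1, *Glb1*, was not measured. The cAMP response element TGACGTCA, the site of CREB, which PKA activates, was in 3 of the 35 (8.57%), those of *Atg5*, *Gusb* and *Mitf*, against 2.03% of all genes, and none of the 3 passed. These matches and their shares describe letters in a short window of listed genes. They do not describe the binding of a factor or a difference between WT and KO.

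Of the 5 membrane proteins, 4 rose. *Cd63*, a tetraspanin of late endosomes and lysosomes, was 9.39, 9.14, 9.14 and 9.16 in WT replicates 1 to 4 and 9.59, 9.72, 9.94 and 9.72 in KO replicates 1 to 4. The groups did not overlap, although WT replicate 1 stood above the other WT arrays. The difference was 0.53 (SE 0.0909, 1.45-fold, 95% interval 0.33 to 0.73, limma adjusted p = 0.00308). *Lamp1*, a heavily glycosylated coat protein of the lysosomal membrane, was 10.71, 10.71, 10.71 and 10.73 in WT and 10.87, 11.00, 11.03 and 10.92 in KO. Its WT arrays were nearly equal, and all KO arrays were higher, by 0.24 on average (SE 0.0618, 95% interval 0.10 to 0.38, limma adjusted p = 0.026). *Lamp2*, its relative that also serves in chaperone-mediated autophagy, was 10.41 to 10.60 in WT and 10.69 to 10.80 in KO, a difference of 0.27 (SE 0.0658, limma adjusted p = 0.0216). *Mcoln1*, the calcium channel that lets calcium out of the lysosome and so helps to free TFEB, was 8.12 to 8.37 in WT and 8.46 to 8.68 in KO, a difference of 0.31 (SE 0.0787, limma adjusted p = 0.0234). *Scarb2*, the receptor that carries glucocerebrosidase to the lysosome, did not pass: its values overlapped, with 8.98 to 9.43 in WT and 8.67 to 9.19 in KO, and the interval ran from -0.49 to 0.07.

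The calls of the 3 smaller differences depended on single arrays. That of *Lamp1* was lost without WT replicates 1, 2 or 3 or KO replicates 2, 3 or 4 (adjusted p 0.0538 to 0.0772), that of *Lamp2* without WT replicates 1 or 3 or KO replicates 3 or 4 (0.0556 to 0.063), and that of *Mcoln1* without WT replicates 1, 2 or 3 or KO replicate 3 (0.0546 to 0.0692), all by limma and each omitting 1 array. The call of *Cd63* held in all 8 such fits.

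The proteases were unequal, with 3 of 10 risen and the others not passing. *Ctsl*, cathepsin L, a cysteine endopeptidase, was 9.61, 10.21, 10.62 and 10.01 in WT and 11.51, 11.68, 11.81 and 11.78 in KO. WT arrays were widely spread (10.11 ± 0.421, SD, n = 4) and KO arrays close together (11.69 ± 0.137, SD, n = 4), with no overlap. The difference was 1.58 (SE 0.177, 2.99-fold, 95% interval 1.19 to 1.97, limma adjusted p = 0.00025), the greatest of the set, and in the unmoderated test with unequal variances it gave an adjusted p of 0.0533. *Ctsz*, cathepsin Z, which trims single residues from the carboxy end, was 9.78, 9.71, 9.76 and 9.61 in WT and 10.30, 10.45, 10.54 and 10.39 in KO. The groups were tight and far apart, by 0.70 (SE 0.0733, 1.63-fold, 95% interval 0.54 to 0.87, limma adjusted p = 0.000163). *Tpp1*, which removes tripeptides from the amino end and is lost in a form of Batten disease, was 10.32 to 10.43 in WT and 10.68 to 10.87 in KO, 0.39 higher (SE 0.0676, limma adjusted p = 0.00348).

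The broadly expressed cathepsins B and D did not pass. *Ctsb* was 12.09 to 12.22 in WT and 12.17 to 12.32 in KO (difference 0.09, 95% interval -0.05 to 0.24), and *Ctsd*, the main aspartic protease of the lysosome, was 10.97 to 11.18 and 11.05 to 11.28 (difference 0.12, 95% interval -0.05 to 0.29). The upper bound of either interval was well under the lower bound of *Ctsl* or *Ctsz*. The intervals of *Ctsa* (protective protein, -0.21 to 0.17), *Ctsc* (which activates serine proteases, -0.14 to 0.42), *Ctsf* (-0.37 to 0.06) and *Ctsh* (-0.07 to 0.35) also spanned zero. *Ctsk*, the collagenase of osteoclasts, was 5.85 to 6.02 in WT and 5.97 to 6.41 in KO, a difference of 0.28 with a limma adjusted p of 0.0878. Of the alternatives run, it passed only with KO replicate 3 left out (0.36, limma adjusted p = 0.0288).

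Among the 5 glycosidases measured, 3 rose. *Gla*, alpha-galactosidase A, which removes galactose from globotriaosylceramide and is deficient in Fabry disease, was 8.01, 7.75, 7.73 and 7.74 in WT and 8.94, 8.69, 8.44 and 8.68 in KO. Replicate 1 was the highest of either group, and still all KO arrays exceeded all WT arrays. The difference was 0.88 (SE 0.108, 1.84-fold, 95% interval 0.64 to 1.12, limma adjusted p = 0.000428). *Gaa*, the acid glucosidase that digests glycogen in lysosomes, was 8.27 to 8.58 in WT and 8.75 to 8.86 in KO, 0.37 higher (SE 0.0775, limma adjusted p = 0.00904, and 0.0813 in the unmoderated test with unequal variances). *Neu1*, the sialidase, was 7.63 to 7.71 in WT and 7.84 to 8.04 in KO, 0.23 higher (SE 0.0662, limma adjusted p = 0.0431), and this call was lost when any array other than KO replicate 1 was left out (adjusted p 0.0624 to 0.116). *Hexa*, the alpha subunit of hexosaminidase A, was 9.53 to 9.66 in WT and 9.59, 9.86, 9.98 and 9.86 in KO. Only KO replicate 1 fell in the WT range, and the difference of 0.22 (limma adjusted p = 0.133) became 0.30 without that array (limma adjusted p = 0.0249). *Gusb*, beta-glucuronidase, overlapped between groups (95% interval -0.08 to 0.34).

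The sphingolipid genes had the highest median of the enzyme groups, 0.52, with 3 of 4 risen. *Psap*, the precursor of the saposins that present sphingolipids to their hydrolases, was 11.06, 10.99, 11.08 and 10.63 in WT and 11.39, 11.73, 11.82 and 11.59 in KO. WT replicate 4 was the lowest array and KO replicate 1 the lowest of its group, and no KO array reached down to the WT range. The difference was 0.69 (SE 0.12, 1.61-fold, 95% interval 0.43 to 0.96, limma adjusted p = 0.00328, and 0.0501 in the unmoderated test with unequal variances). *Asah1*, acid ceramidase, which splits ceramide into sphingosine and a fatty acid, was 9.39, 9.48, 9.28 and 9.38 in WT and 10.06, 9.91, 9.97 and 9.86 in KO. Here KO replicate 1 was the highest array and not the lowest, and the groups were 0.57 apart (SE 0.0724, 1.48-fold, 95% interval 0.41 to 0.73, limma adjusted p = 0.00052). *Grn*, progranulin, a secreted and lysosomal protein that travels with prosaposin, was 9.21 to 9.45 in WT and 9.69 to 9.94 in KO, 0.47 higher (SE 0.078, limma adjusted p = 0.00249). *Smpd1*, acid sphingomyelinase, was 7.39 to 7.56 in WT and 7.36 to 7.69 in KO (95% interval -0.15 to 0.22).

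**Figure D3:**
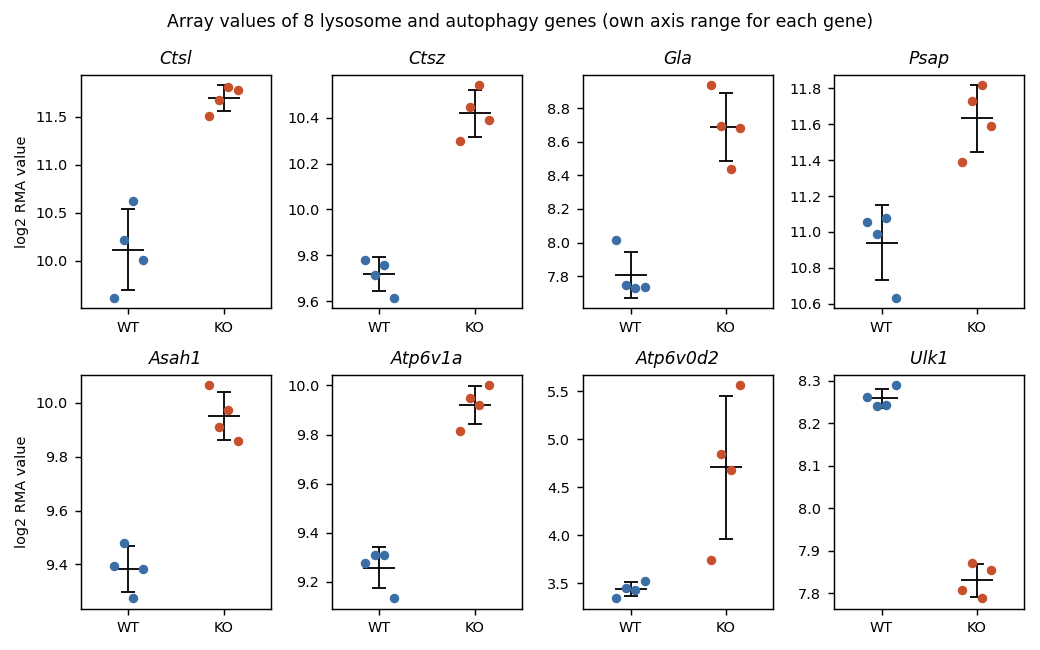
Log2 RMA values (vertical axis, with its own range for each gene and not starting at zero) of 8 genes in the 4 WT and 4 KO arrays, each point an array, with the mean and SD of each group. KO points lie above WT points in *Ctsl*, *Ctsz*, *Gla*, *Psap*, *Asah1*, *Atp6v1a* and *Atp6v0d2* and below in *Ulk1*, and those of *Atp6v0d2* spread from 3.75 to 5.56.

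Of the 6 proton pump subunits in the set 5 rose. *Atp6v1a*, the catalytic subunit that binds ATP, was 9.28, 9.31, 9.31 and 9.13 in WT and 9.81, 9.95, 9.92 and 10 in KO. The groups lay far apart beside their spread, and the difference was 0.66 (SE 0.0707, 1.58-fold, 95% interval 0.51 to 0.82, limma adjusted p = 0.000186). *Atp6v1h*, the subunit that couples V1 to V0, was 9.27 to 9.37 in WT and 9.66 to 9.81 in KO, 0.43 higher (SE 0.0621, limma adjusted p = 0.00112). *Atp6v0d1*, the widely expressed d subunit in the stalk of V0, was 9.02 to 9.12 in WT and 9.37 to 9.51 in KO, 0.38 higher (SE 0.063, limma adjusted p = 0.00243). *Atp6v0a1*, an a subunit that forms the proton path and directs the pump to its membrane, was 9.72 to 9.87 in WT and 10.08 to 10.23 in KO, 0.36 higher (SE 0.0659, limma adjusted p = 0.00479).

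The other d subunit, *Atp6v0d2*, known from osteoclasts and kidney, had another pattern. It was 3.35, 3.46, 3.43 and 3.53 in WT, in the range of the Y-linked genes, and 3.75, 4.84, 4.68 and 5.56 in KO. The KO arrays thus went from just above that range to well above it, a far wider spread (SD 0.748) than in WT (SD 0.0752). None of them exceeded 5.80, the highest mean among the kidney markers read below. The fitted difference was 1.27 (SE 0.291, limma adjusted p = 0.0153), and in the unmoderated tests the adjusted p was 0.102 with equal and 0.207 with unequal variances. *Atp6v1b2*, the B subunit of most tissues, did not pass: WT was 9.71, 9.76, 9.67 and 9.31 and KO 9.53, 9.69, 9.69 and 9.70 (95% interval -0.19 to 0.26).

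The remaining subunits of the pump were read from a wider list, of which 17 of 19 were measured. Of these 8 rose (47.1%), 1 fell (5.88%) and 8 did not pass, with a median of 0.31. The 4 with the largest differences were *Atp6v1c2* (0.62, SE 0.119, adjusted p = 0.00591, from a low mean of 4.47 in WT), *Atp6v1d* of the central rotor (0.47, SE 0.0772, adjusted p = 0.00235), *Atp6v0a2* (0.44, SE 0.064, adjusted p = 0.00121) and *Atp6v1e1* of the outer stalk (0.41, SE 0.0748, adjusted p = 0.00451), all by limma. The means of *Atp6v1c2* in WT and in KO (4.47 and 5.09) both lay within the range of the kidney marker means. The subunit that fell was *Atp6v1g2*, which is known from neurons (-0.31, limma adjusted p = 0.0324), named here after its value was seen. Its call was lost without KO replicates 2 or 4 or any single WT array (adjusted p 0.0644 to 0.0896), and after centring of the arrays on their medians (0.0547). Over all 23 subunits measured 13 rose, 1 fell and 9 did not pass, with 5 of 9 in V0, 7 of 12 in V1 and 1 of 2 accessory proteins risen.

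**Figure D4:**
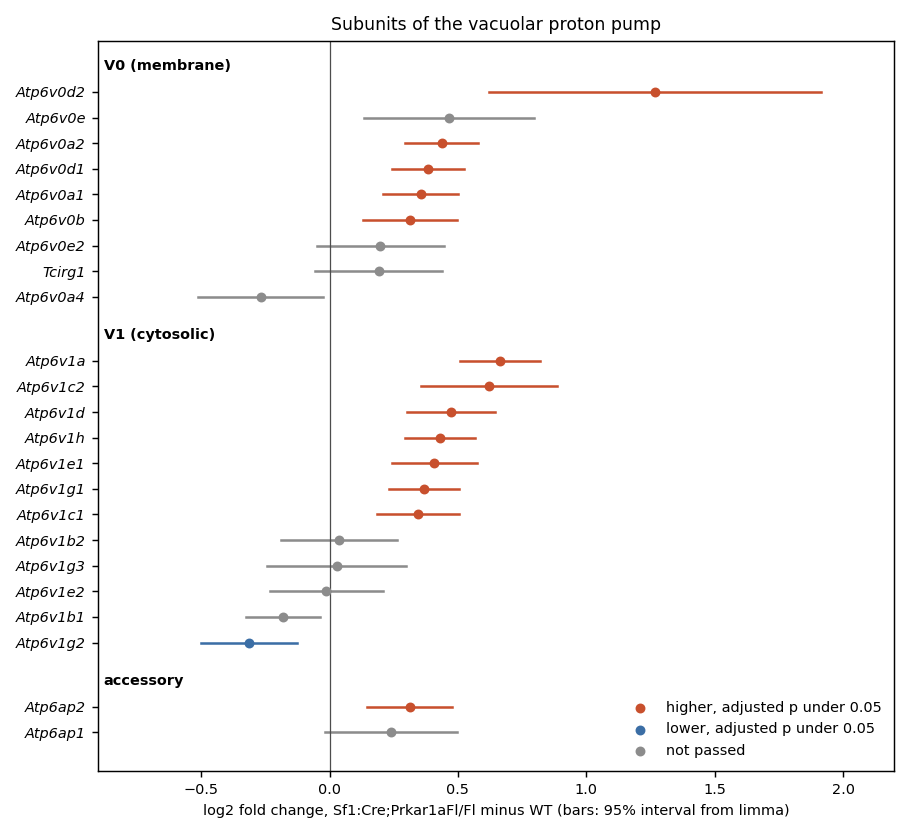
Log2 fold change (KO minus WT, horizontal axis) of the 23 measured subunits of the vacuolar proton pump, in rows ordered by V0, V1 and accessory proteins, with bars for the 95% interval from limma. 13 subunits are called higher and 1, *Atp6v1g2*, lower.

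The transcripts of the 3 factors that can drive these genes did not pass the test. *Tfeb* was 5.47 to 5.55 in WT and 5.32 to 5.49 in KO (-0.12, 95% interval -0.26 to 0.02, limma adjusted p = 0.262). Its mean of 5.45 lay below the median cluster and within the range of the kidney marker means, so a difference could be hard to see. *Tfe3* was 7.87 to 8.01 in WT and 7.72 to 7.91 in KO (-0.10, 95% interval -0.25 to 0.05, limma adjusted p = 0.396). *Mitf* was 6.74 to 6.97 in WT and 6.89 to 7.0 in KO (0.09, 95% interval -0.07 to 0.25, limma adjusted p = 0.473). No p of the 3 was under 0.05 before adjustment, and neither unmoderated test called any. The intervals of *Tfeb* and *Tfe3* reached down, and that of *Mitf* up, to a difference of the size seen in *Lamp1*, and transcript levels say nothing of where the proteins were in the cell.

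In a wider list of 22 measured genes that act on TFEB or on mTORC1 at the lysosome, 4 rose (18.2%, against 7.35% of all clusters and 12.7% of those above the median) and 18 did not pass, with a median of 0.04. *Tfec*, the fourth member of the MiT/TFE family, went from 4.41 to 4.95 (0.54, SE 0.0997, adjusted p = 0.00473). Both means lay below the median cluster and within the range of the kidney marker means (3.79 to 5.80). Such values are not by themselves evidence of a transcript. *Lamtor3*, a scaffold of the Ragulator complex that anchors mTORC1 on the lysosome, was 0.40 higher (SE 0.0781, adjusted p = 0.00621), but its lowest-mean cluster gave 0.27 and no call (adjusted p = 0.0508). *Fnip2*, a partner of folliculin, was 0.34 higher (SE 0.0867, adjusted p = 0.026), and *Mlst8*, a subunit of mTORC1, 0.30 higher (SE 0.0799, adjusted p = 0.031). The p-values are limma's, and the calls of the last 2 were lost without WT replicates 2 or 4 or KO replicates 2 or 4, without KO replicate 3 for *Fnip2* and without WT replicate 3 or KO replicate 1 for *Mlst8* (adjusted p up to 0.0716 and 0.0847).

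Of the 10 autophagy genes 1 fell, 3 rose and 6 did not pass. *Ulk1*, the kinase that starts autophagosome formation, was 8.26, 8.24, 8.24 and 8.29 in WT and 7.81, 7.87, 7.79 and 7.86 in KO. Both groups were tight (SD 0.0223 and 0.0386) and did not overlap, and *Ulk1* fell by 0.43 on the log2 scale (SE 0.0579, 95% interval -0.56 to -0.30, limma adjusted p = 0.000758). The genes that rose were *Atg12*, *Becn1* and *Atg7*. *Atg12*, the ubiquitin-like protein that is joined to ATG5, was 7.97 to 8.21 in WT and 8.45 to 8.52 in KO (SE 0.0715, 1.27-fold, 95% interval 0.19 to 0.50, limma adjusted p = 0.00905, and 0.0821 in the unmoderated test with unequal variances). *Becn1*, beclin 1 of the lipid kinase complex, was 8.06, 8.14, 8.08 and 7.75 in WT and 8.19, 8.50, 8.46 and 8.32 in KO (0.36, SE 0.102, limma adjusted p = 0.0419). *Atg7*, the enzyme that activates ATG12 and LC3, was 7.27 to 7.51 in WT and 7.53 to 7.80 in KO (0.31, SE 0.0798, limma adjusted p = 0.0266). The calls of *Becn1* and *Atg7* were both lost without WT replicates 1, 3 or 4 or KO replicates 2, 3 or 4 (adjusted p 0.0659 to 0.109 and 0.0603 to 0.0779), and in the unmoderated test with equal variances (0.117 and 0.0595).

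The proteins by which autophagy is commonly followed did not pass at the transcript level. *Map1lc3b*, which is bound to autophagosome membranes, was 10.15 to 10.23 in WT and 9.89 to 10.20 in KO (95% interval -0.30 to 0.04). *Sqstm1*, the cargo receptor p62, was 10.98, 10.98, 10.77 and 10.44 in WT and 10.95, 11.19, 11.10 and 11.04 in KO, with WT replicate 4 far down (0.28, limma adjusted p = 0.174). *Map1lc3a* (-0.10 to 0.28), *Gabarapl1* (-0.23 to 0.12) and *Atg5* (-0.13 to 0.23) had 95% intervals that spanned zero. *Wipi1*, which binds phosphatidylinositol 3-phosphate on the growing membrane, was 7.67, 8.13, 8.30 and 8.10 in WT and 7.56, 7.58, 7.78 and 7.75 in KO. Only WT replicate 1 lay within the KO range, and the difference of -0.38 (limma adjusted p = 0.0726) became -0.51 without it (limma adjusted p = 0.00497).

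Of 43 other autophagy genes measured, 5 rose (11.6%), 6 fell (13.95%) and 32 did not pass, with a median of 0.0046. Over all clusters 7.35% were higher and 6.17% lower, and among those above the median 12.7% and 9.45%. Whether the shares of this list differ from either background was not tested. *Bnip3*, a mitochondrial receptor for autophagy, was 8.62 to 9.16 in WT and 7.78 to 8.06 in KO and fell by 0.98 on the log2 scale (SE 0.12, limma adjusted p = 0.000426). *Stx17*, the SNARE that fuses autophagosomes with lysosomes, was 9.12 to 9.47 in WT and 8.50 to 8.66 in KO and fell by 0.72 (SE 0.0857, limma adjusted p = 0.000363). *Epg5*, a tether for the same fusion, went the other way, with 7.30 to 7.89 in WT and 8.46 to 8.81 in KO (0.95, SE 0.128, limma adjusted p = 0.000719). *Atg4a*, a protease that processes the LC3 family, was 0.57 higher (SE 0.0781, limma adjusted p = 0.000828). Most partners of *Ulk1* and *Becn1* in this list did not pass: *Rb1cc1*, *Atg101*, *Atg14*, *Uvrag*, *Pik3r4*, *Ambra1* and *Rubcn* lay between -0.17 and 0.06. The partners or relatives with a call, all named after their values were seen, were *Atg13* (-0.41, limma adjusted p = 0.0102), *Ulk2*, a relative of *Ulk1* and not its partner (0.25), and *Pik3c3*, the lipid kinase itself (-0.27). The calls of the last 2 were lost without WT replicates 1 or 3 or KO replicates 2, 3 or 4, without KO replicate 1 for *Ulk2* and without WT replicate 2 for *Pik3c3* (limma adjusted p 0.0506 to 0.0725 and 0.0603 to 0.0911).

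Among lysosomal genes outside the set, *Npc1* had the largest difference of the called membrane genes, and *Lipa* was 1 of 2 hydrolases that fell. *Npc1*, the membrane protein that passes cholesterol out of the lysosome, was 8.67, 8.63, 8.61 and 8.47 in WT and 9.43, 9.68, 9.92 and 9.63 in KO. All KO arrays were above all WT arrays, and the difference was 1.07 (SE 0.101, 2.1-fold, limma adjusted p = 8.47e-05). *Lipa*, the acid lipase that frees that cholesterol from its esters, was 11.84, 11.81, 11.79 and 11.95 in WT and 11.26, 11.08, 11.20 and 11.10 in KO. It was lower on every KO array, by 0.69 on average (log2 fold change -0.69, SE 0.0695, limma adjusted p = 0.000132). *Npc2*, the soluble partner of *Npc1*, did not pass (0.09, limma adjusted p = 0.552).

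Of the 30 other membrane genes measured, 8 rose (26.7%) and 1 fell (3.33%), with a median of 0.13. Besides *Npc1* the largest were *Hgsnat*, the transferase lost in a form of Sanfilippo disease (0.80, SE 0.0776, adjusted p = 0.000104), *Clcn7*, the chloride-proton exchanger (0.42, SE 0.11, adjusted p = 0.0286), and *Mfsd8*, lost in a form of Batten disease (0.41, SE 0.0739, adjusted p = 0.00437). The call of *Clcn7* was lost without WT replicate 3 or KO replicates 2, 3 or 4 (adjusted p 0.0655 to 0.0783). The 28 other hydrolases and activators measured had 4 that rose (14.3%), 2 that fell (7.14%) and a median of 0.08. The shares over all clusters were 7.35% and 6.17%, and over those above the median 12.7% and 9.45%. *Galc*, which removes galactose from galactosylceramide, was 6.44 to 6.82 in WT and 7.30 to 7.84 in KO (0.88, SE 0.13, adjusted p = 0.00129), and *Ppt1*, which strips palmitate from proteins, was 0.58 higher (SE 0.112, adjusted p = 0.00644). *Arsb*, a sulfatase of dermatan sulfate, was the other that fell, with 9.17 to 9.27 in WT and 8.22 to 8.46 in KO (-0.85, SE 0.0715, adjusted p = 4.2e-05), all by limma. Over all 140 genes of the wider lists 29 rose (20.7%), 10 fell (7.14%) and 101 did not pass, against 7.35% and 6.17% of all clusters and 12.7% and 9.45% of those above the median. The number fallen was 6 without WT replicate 2.

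Macrophages are rich in lysosomes, and fat, capsule and medulla were in the extracted gland, so markers of these cells were read on the same arrays. Of 15 macrophage markers 1 rose (6.67%, against 7.35% of all clusters and 12.7% of those above the median), *Mrc1* (0.55, SE 0.111, limma adjusted p = 0.00783). At an unadjusted limma p under 0.05, 2 were higher, *Mrc1* and *Cd163* (0.55, limma adjusted p = 0.0635), and none lower. The summed unlogged level of the 15 was 2677 to 3289 in WT and 2809 to 3310 in KO, ranges that overlap almost wholly. From the wider lists 3 lysosomal genes typical of macrophages were read too, which were not among those planned to be named. *Ctss* (0.065), *Laptm5* (-0.079) and *Cd68* (0.30) had limma adjusted p-values of 0.89, 0.781 and 0.159, and *Cd68* an unadjusted limma p of 0.0373. The other genes were not sorted by their level in macrophages, so these 3 do not stand for all such genes. Kidney tubule and intercalated cell markers, read because *Atp6v0d2* is known from kidney, had mean values of 3.79 to 5.80 and sums of 391 to 433 in WT and 392 to 406 in KO. None of the 12 passed limma's test, had an unadjusted p under 0.05 or passed an unmoderated test.

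Of 11 adipocyte markers 7 fell by limma (63.6%, against 6.17% of all clusters), the most of them *Ucp1* (-4.55, SE 0.841) and *Cidea* (-3.72, SE 0.685). Neither unmoderated test called any of the 11. Their summed level was 5503 to 19300 in WT and 2376 to 7791 in KO, ranges that overlap. WT replicate 1 was low: *Ucp1* was 5.95 there and 9.91 to 10.64 in the other WT arrays, and *Cidea* 6.50 and 9.91 to 10.04. *Lep* lay the other way without a call (1.05). Fibroblast and capsule markers had 2 of 12 risen (16.7%), *Lum* (1.25) and *Dcn* (0.56), with sums of 4361 to 5202 in WT and 4284 to 6966 in KO. Of 7 chromaffin markers 1 rose (14.3%), *Pnmt* (0.54), with sums of 9724 to 11058 in WT and 8123 to 11945 in KO. Both shares stand beside 7.35% higher over all clusters and 12.7% among those above the median, and they were not tested. Both sums overlapped between groups. Of 9 markers of steroidogenic cortex 3 rose (33.3%, against 7.35% of all clusters and 12.7% of those above the median). They were *Scarb1* (0.86), the receptor that takes up cholesterol from high-density lipoprotein, *Mrap* (0.65) and *Cyp11a1* (0.24). The corticotropin receptor *Mc2r* fell (-0.61), 1 of the 9 (11.1%, against 6.17% and 9.45%). The summed level of the 9 was 42834 to 47222 in WT and 48408 to 50397 in KO, ranges that did not overlap. The part of any change in cell types in the differences of the lysosome and autophagy genes was not tested.

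The arrays of a group were not interchangeable over the set. KO replicate 1 was the lowest KO array in 27 of the 43 genes (62.8%), where it was the lowest in 29.7% of all clusters, and KO replicate 3 was the highest in 20 (46.5%, against 24.9%). WT replicate 4 was the lowest WT array in 19 genes (44.2%, against 29.5%). As medians over the 43 genes of the difference from the WT mean, the KO arrays stood at 0.16, 0.28, 0.31 and 0.24 and the WT arrays at 0.03, 0.02, 0.02 and -0.06, so that the lowest KO array remained above the highest WT array. With 1 array left out at a time, 15 to 22 genes rose and 1 to 2 fell, and 16 of the 22 called genes kept their call in all 8 fits.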

How the data were processed

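Total RNA of whole adrenal glands from 4 WT and 4 sf1:Cre; Prkar1a Fl/Fl mice was labelled with biotin and hybridised to Affymetrix Mouse Gene 2.0 ST arrays, 1 per sample. The authors deposited log2 values made with RMA, in a table of 28067 transcript clusters, and these were used unchanged. A further deposited table holds only the authors' own fold changes and adjusted p-values for this comparison and was not used. Scanner files were not used here, so detection calls, scan dates and the choice of background correction could not be checked. Precision is set by having 4 arrays a group.

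Clusters were named by the platform annotation: 22822 had 1 symbol and were tested, 1703 had several and 3542 none. Of the 22822, 22679 had a gene identifier in RefSeq, which changed no symbol used. Where a symbol had more than 1 cluster (779 symbols), the cluster with the highest mean represented it. A linear model with genotype alone was fitted with limma 3.58.1 (R 4.3.3), its moderated two-sided p-values being adjusted by Benjamini-Hochberg over the 22822 clusters, with an adjusted p under 0.05 as the threshold. Tables were made with Python 3.11.15 and pandas 2.3.3. In data simulated for this comparison on 22822 clusters, limma called 4% of clusters changed by 0.25 log2 units, 50% of those changed by 0.5, 96% at 1 and 100% at 2, and 6.72% of its calls were unchanged clusters. The simulation held far fewer changed clusters than limma called on the real arrays, which makes its adjusted threshold stricter. Its shares therefore check the code and do not give the power of the real comparison. An exact two-sided permutation test of 4 against 4 arrays cannot go below p = 0.0286.

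The genes and lists were chosen with earlier results of these data known. All 44 genes were to be named, with *Prkar1a*, up to 4 called genes with the largest differences from each wider list and the called cell type markers. Alternatives were the unmoderated tests of Student, which the methods name, and of Welch, array weights, a block on replicate number, trend and robust moderation, a filter on dim clusters, centring or quantile normalization of the arrays, all clusters, the lowest-mean cluster, a log2 fold change beyond 1 and each array left out in turn.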

Additional observations from a re-analysis of the deposited data

Results flagged for a closer look

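Of the 86 groups of 4 arrays (43 genes in WT and in KO), 3 held an array set apart from the other 3 by Dixon's criterion, where chance would flag about 1 group in 20. *Cd63* was 9.39 in WT replicate 1 and 9.14 to 9.16 in the other WT arrays. *Gla* was 8.01 in WT replicate 1 and 7.73 to 7.75 in the others. *Atp6v1b2* was 9.53 in KO replicate 1 and 9.69 to 9.70 in the other KO arrays. The calls of *Cd63* and *Gla* held without WT replicate 1, and *Atp6v1b2* had no call with or without KO replicate 1.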

How the results depend on the processing

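By limma on all arrays 21 genes of the set rose and 1 fell, 29 of the wider lists rose and 10 fell, and 1678 clusters rose and 1407 fell. Student's test called 920 clusters lower. Welch's test called 11 genes of the set and 13 of the wider lists higher, 4 of the wider lists lower, and 710 clusters higher and 492 lower. The calls it ended in the set were *Ctsl* (adjusted p = 0.0533), *Psap* (0.0501), *Gaa* (0.0813), *Atg12* (0.0821), *Lamp1* (0.0755), *Neu1* (0.0881), *Mcoln1* (0.0698), *Atp6v0d2* (0.207), *Becn1* (0.14) and *Atg7* (0.0786). With a limma call and a log2 fold change beyond 1, 2 genes of the set (*Ctsl* and *Atp6v0d2*) and 1 of the wider lists rose and 0 genes of either fell, and 246 clusters rose and 212 fell. With array weights, or with quantile normalization repeated, 2 genes of the set were lower, *Wipi1* (adjusted p = 0.0393 and 0.0439) beside *Ulk1*, and the repeated quantile step also ended the calls of *Lamp1* (0.101), *Lamp2* (0.0897) and *Neu1* (0.0677). Student's test ended those of *Mcoln1* (0.053), *Atp6v0d2* (0.102), *Becn1* (0.117) and *Atg7* (0.0595).

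With the replicate number as a block, 16 genes of the set were higher and 2 lower, the added call being *Wipi1* (adjusted p = 0.0383), and those lost being *Lamp1* (0.0801), *Lamp2* (0.0653), *Mcoln1* (0.0676), *Neu1* (0.104) and *Atg7* (0.0512). The numbers do not pair the arrays: same-numbered arrays correlated at -0.0402 to 0.0424 in their deviations from the group means, and no array was closest to its own number.

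Leaving out 1 array at a time gave 15 to 22 genes of the set higher and 1 to 2 lower, 20 to 27 of the wider lists higher and 6 to 9 lower, 1315 to 1584 clusters higher and 1041 to 1310 lower, and a median of 0.22 to 0.27 for the set. The sign changed in genes without a call. *Ctsa* was 0.0020 with array weights, 0.0094 after median centring and -0.0739 to 0.0378 with an array left out. *Smpd1* was -0.0689 by its lowest-mean cluster and -0.0294 to 0.0803 with an array left out, *Atp6v1b2* -0.0080 and -0.0650 to 0.0860 likewise, and *Atg5* -0.0161 to 0.0802 with an array left out. Limma kept 16 of the 22 calls of the set in every setting that tested the gene (*Atp6v0d2* was absent from the fit without dim clusters), Student's test 18 and Welch's 12. The cause of these shifts was not tested. Genes with small differences and wide spread could be missed, but how often is not known. The 50% called in the simulation at 0.5 log2 units does not carry over, since far fewer clusters were changed there than were called here.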
